A study of Drosophila melanogaster with 12 samples.

Results

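The genes described here run the core apoptosis pathway of Drosophila. They are the inducers rpr, hid, grim and skl, the inhibitor Diap1, the caspases Dronc, Drice and Dcp-1, and the adaptor Dark. They were chosen by name, as known members of that pathway. Of the 9 genes, 6 had at least 1 probe set annotated to them alone, with 7 probe sets among 18769 on the array. Of these, 5 probe sets of 4 genes (rpr, Dronc, Dark and Dcp-1) were bright enough to be tested. No probe set is named for hid, Diap1 or Drice in the tables used here, and these 3 genes were not analysed here. The rpr probe set carries its name only in the probe table that accompanied the arrays' publication, whereas the others are named by the array annotation.

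RNA was measured in ML-DmBG3 (BG3) cells, a cultured line derived from the Drosophila central nervous system, on 12 Affymetrix Drosophila Genome 2.0 arrays. Cells were given double-stranded RNA (dsRNA) that targets Rad21, which is part of the cohesin ring, or Nipped-B, which loads that ring onto chromosomes, or were given none (mock RNAi, 0 µg). The 4 arrays of a treatment are a pair harvested at day 3 (replicates 1 and 2) and single arrays of day 4 (replicate 3) and day 6 (replicate 4). The purpose was to see how transcript levels depend on cohesin. All cells are of the 1 line, in the same medium with serum and insulin. Each target was treated with an equal mixture of a pair of dsRNAs, at 40 µg for day 3 and 10 µg for days 4 and 6. The time of harvest and the amount of dsRNA therefore change together in the knockdowns and cannot be told apart. As the mock cells received no control dsRNA, the loss of the target and the presence of dsRNA cannot be told apart either. The labels number the 4 arrays of a treatment as biological replicates.

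Apoptosis in flies is started by transcription of rpr, hid, grim and skl, which lie near each other on chromosome arm 3L. Their products bind Diap1, an inhibitor of apoptosis protein (IAP) that otherwise blocks caspases and marks them for degradation. The initiator caspase Dronc, released from Diap1, assembles with the adaptor Dark into the apoptosome and cleaves the effector caspases Drice and Dcp-1, which take the cell apart. In the developing nervous system this pathway removes surplus neuroblasts and neurons. An RNA level says nothing of whether a caspase is active, since caspases are made as inactive precursors.

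The values are log2 expression values that the authors computed with GCRMA, an array method that subtracts background and summarises the probes of a probe set. Most probe sets have no signal and lie at a floor well under log2 4. The arrays were alike in level, with 7199 to 7261 probe sets at log2 4 or above and a median of the tested probe sets of 9.33 to 9.41. The probe set of Nipped-B was at 2.27 to 2.29 on all 12 arrays and no probe set was named for Rad21 (the gene vtd), so neither knockdown is measured by these values. Tests were run with limma on the 7350 probe sets with a value of log2 4 or more on 2 or more arrays, in a model of 6 means (the treatments by the time classes day 3 and days 4 and 6), and Benjamini-Hochberg adjustment over all 7350. It is called changed at an adjusted p of at most 0.1. Levels of different probe sets were not compared with each other.

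Markers of the cell types that this line could resemble were read on the same arrays. Of the neuron markers, the RNA-binding protein gene elav was above log2 4 on all arrays (7.79 to 9.43), whereas nSyb and brp, which act at synapses, were below 4 on all. Of the glia markers, repo was at 4.15 to 5.23 and moody at 12.70 to 13.11. wrapper lay between 2.56 and 5.17, and gcm was below 4 on all arrays. The neuroblast markers dpn, ase, wor and pros were below 4 on every array, and mira lay between 3.65 and 5.38. Of the 5 haemocyte (blood cell) markers, srp (12.49 to 13.47) and Pxn were above 4 on all arrays, and Hml, NimC1 and He were below 4 on all. In bulk samples fewer cells of a type and less RNA per cell cannot be told apart.

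The inducers grim and skl were at background on every array. The grim probe set lay between 2.99 and 3.10 on the 12 arrays, and that of skl between 2.47 and 2.53. Neither reached log2 4 on any array of mock, Rad21 RNAi or Nipped-B RNAi cells, so neither was tested, and on this array a transcript below background has no measured level. The third inducer with a probe set, rpr, was above log2 4 on all 12 arrays, between 4.62 and 5.98. Its level was low, in the range where a probe set has just left background.

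The rpr values in mock cells were 5.56 and 5.48 at day 3, 5.76 at day 4 and 5.45 at day 6. In Rad21 RNAi cells they were 5.90 and 5.96, 5.77 and 5.44 at the same days. In Nipped-B RNAi cells they were 5.70 and 5.70 at day 3, 5.98 at day 4 and 4.62 at day 6. That single Nipped-B array of day 6 was the lowest of all 12 and the Nipped-B array of day 4 the highest, and both knockdown groups overlapped mock. The mean log2 difference from mock was 0.21 (SE 0.25, limma adjusted p = 0.541) with Rad21 RNAi and -0.06 (SE 0.25, adjusted p = 0.868) with Nipped-B RNAi, so neither passed the test. The 95% interval ran from -0.37 to 0.78 with Rad21 RNAi and from -0.64 to 0.51 with Nipped-B RNAi, which leaves room for changes of either sign. The Nipped-B value hung on the day 4 array of that knockdown, since without it the difference was -0.40 (SE 0.13, adjusted p = 0.0393) from the remaining day 3 and day 6 arrays. The Rad21 difference at day 3 was 0.41 (SE 0.36, adjusted p = 0.464). Without Nipped-B replicate 3 or without Nipped-B replicate 4, arrays that do not enter that difference but do enter its error, the same 0.41 passed the test (adjusted p = 0.0967 and 0.0952).

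**Figure D1:**
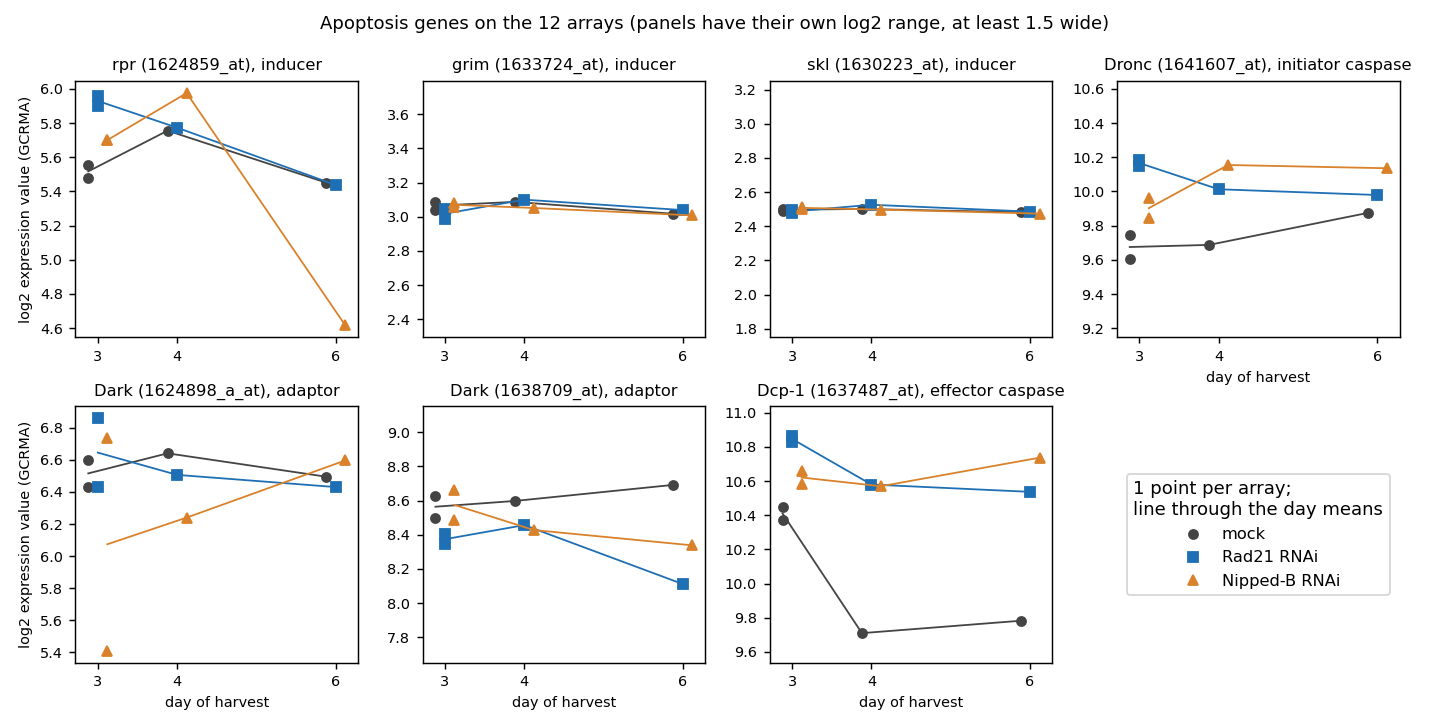
Log2 expression values (vertical axes, GCRMA, each panel with its own range) of the 7 probe sets against day of harvest (horizontal axes), 1 point per array, with lines through the day means of mock (circles), Rad21 RNAi (squares) and Nipped-B RNAi (triangles) cells. The Dcp-1 panel shows mock cells falling from 10.37 and 10.45 at day 3 to 9.71 and 9.78 at days 4 and 6 while all knockdown arrays stay at 10.54 or above, and the grim and skl panels are flat at background.

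Dronc, the initiator caspase, rose with both knockdowns. Its mock values were 9.74 and 9.61 at day 3, 9.69 at day 4 and 9.87 at day 6, a mean of 9.73 ± 0.11 (SD, n = 4). With Rad21 RNAi they were 10.19 and 10.15, 10.01 and 9.98 at the same days, a mean of 10.08 ± 0.10 (SD, n = 4). All 4 Rad21 arrays were above all 4 mock arrays. With Nipped-B RNAi the values were 9.96 and 9.84 at day 3, 10.16 at day 4 and 10.14 at day 6, a mean of 10.02 ± 0.15 (SD, n = 4). The lower day 3 array of Nipped-B cells fell below the day 6 mock array, so those groups overlapped, although each Nipped-B array was above the mock array of its own replicate number. The difference from mock was 0.35 on the log2 scale (SE 0.06, limma adjusted p = 0.00256), or 1.28-fold, with Rad21 RNAi. It was 0.30 (SE 0.06, adjusted p = 0.00813), or 1.23-fold, with Nipped-B RNAi. Both calls held when any 1 of the 12 arrays was left out, with differences from 0.31 to 0.40 for Rad21 and from 0.25 to 0.34 for Nipped-B RNAi.

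Within the time classes Dronc was called in Rad21 RNAi cells at day 3 and in Nipped-B RNAi cells at days 4 and 6. At day 3 the difference from mock was 0.49 with Rad21 RNAi (SE 0.09, limma adjusted p = 0.00579) and 0.23 with Nipped-B RNAi (SE 0.09, adjusted p = 0.179). At days 4 and 6 it was 0.22 with Rad21 RNAi (SE 0.09, adjusted p = 0.103) and 0.36 with Nipped-B RNAi (SE 0.09, adjusted p = 0.0176). The change of the effect between the classes was called for neither knockdown, at -0.28 (SE 0.13, adjusted p = 0.379) for Rad21 and 0.14 (SE 0.13, adjusted p = 0.794) for Nipped-B RNAi. Whether the knockdowns differ from each other in that change was not tested. With the replicate number as a block, the Nipped-B difference at day 3 passed (adjusted p = 0.0821), as did the Rad21 difference at days 4 and 6 (adjusted p = 0.0531). The latter also passed without mock replicate 4, the highest mock array (0.31, adjusted p = 0.0462).

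Dark, the adaptor that Dronc needs to become active, has a pair of probe sets that gave different results. On the brighter one mock cells were at 8.63 and 8.50 at day 3, 8.60 at day 4 and 8.69 at day 6. Rad21 RNAi cells were at 8.40 and 8.35, 8.46 and 8.11, all 4 below all 4 mock arrays, with the lowest value at day 6. Nipped-B RNAi cells were at 8.49 and 8.66 at day 3, 8.43 at day 4 and 8.34 at day 6, and overlapped mock at day 3. The probe set fell by 0.28 on the log2 scale with Rad21 RNAi (SE 0.09, limma adjusted p = 0.0352), to 0.826 of the mock level. With Nipped-B RNAi the difference was -0.13 (SE 0.09, adjusted p = 0.307) and was not called. The Rad21 call was lost without mock replicate 1 (-0.24), Rad21 replicate 2 (-0.26) or Rad21 replicate 4 (-0.19), with adjusted p of 0.11, 0.104 and 0.114.

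By time class the brighter Dark probe set was called only with Rad21 RNAi at days 4 and 6, at -0.36 (SE 0.13, limma adjusted p = 0.0581). That call was lost without mock replicate 4 (-0.31), without Rad21 replicate 4 (-0.19) and with no filter on low values (adjusted p = 0.147). At day 3 the Rad21 difference was -0.19 (SE 0.13, adjusted p = 0.325). The Nipped-B differences were 0.01 (SE 0.13, adjusted p = 0.975) at day 3 and -0.26 (SE 0.13, adjusted p = 0.15) at days 4 and 6.

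The second, dimmer Dark probe set spread more between replicates. Its mock values ran from 6.43 to 6.64 and its Rad21 values from 6.43 to 6.86. In Nipped-B RNAi cells the day 3 arrays were at 6.74 and 5.41, 1 the second highest and 1 the lowest of all 12 arrays, with 6.24 at day 4 and 6.60 at day 6. The differences from mock were 0.02 (SE 0.26, limma adjusted p = 0.968) with Rad21 and -0.30 (SE 0.26, adjusted p = 0.402) with Nipped-B RNAi. The Nipped-B value passed the test (-0.63, adjusted p = 0.0175) without Nipped-B replicate 1, where day 3 then rests on the low array. Its 95% intervals include the fall of 0.28 seen with Rad21 RNAi on the brighter probe set. Which Dark transcripts each probe set reads is not given in the files used here.

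Dcp-1, an effector caspase that Dronc cleaves, showed the largest differences among the 5 tested probe sets of the pathway's core as the mean of both time classes and at days 4 and 6, though not at day 3. Mock values were 10.37 and 10.45 at day 3, 9.71 at day 4 and 9.78 at day 6. With Rad21 RNAi they were 10.83 and 10.87 at day 3, 10.58 at day 4 and 10.54 at day 6, and with Nipped-B RNAi 10.66 and 10.58, 10.57 and 10.74. Every array of both knockdowns was above every mock array. Dcp-1 rose by 0.62 on the log2 scale with Rad21 RNAi (SE 0.06, limma adjusted p = 9.8e-05), or 1.54-fold. It rose by 0.56 with Nipped-B RNAi (SE 0.06, adjusted p = 0.000296), or 1.47-fold. Leaving out any 1 of the 12 arrays kept both calls, with differences from 0.60 to 0.64 and from 0.52 to 0.60.

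The day-by-day ratios of Dcp-1 to mock were smallest at day 3. With Rad21 RNAi the ratio was 1.35 at day 3, 1.83 at day 4 and 1.69 at day 6, and with Nipped-B RNAi 1.16, 1.81 and 1.94. Days 4 and 6 rest on 1 array of each treatment. Dcp-1 fell by 0.66 between day 3 and days 4 and 6 in mock cells (SE 0.08, limma adjusted p = 0.00133). It fell by 0.29 in Rad21 RNAi cells (SE 0.08, adjusted p = 0.0824). In Nipped-B RNAi cells the change was 0.03 (SE 0.08, adjusted p = 0.849, 95% interval -0.15 to 0.22). The changes within the knockdown cells were tested after the values had been seen. The larger ratios at days 4 and 6 thus coincide with a lower level in the mock arrays of those days.

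The test of the effect's change between time classes gave 0.70 for Dcp-1 with Nipped-B RNAi (SE 0.11, limma adjusted p = 0.0909), which was called. With Rad21 RNAi it was 0.38 (SE 0.11, adjusted p = 0.21), and 0.0938 with the replicate number as a block. The Nipped-B call lay close to the threshold and was kept without mock replicate 3 or Nipped-B replicate 3 but lost without any other single array, with values between 0.61 and 0.78 and an adjusted p of up to 0.316. Within day 3 the difference from mock was 0.44 with Rad21 RNAi (SE 0.08, adjusted p = 0.00596) and 0.21 with Nipped-B RNAi (SE 0.08, adjusted p = 0.167, or 0.0894 with the block). Within days 4 and 6 it was 0.81 with Rad21 RNAi (SE 0.08, adjusted p = 0.000372) and 0.91 with Nipped-B RNAi (SE 0.08, adjusted p = 0.000336).

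**Figure D2:**
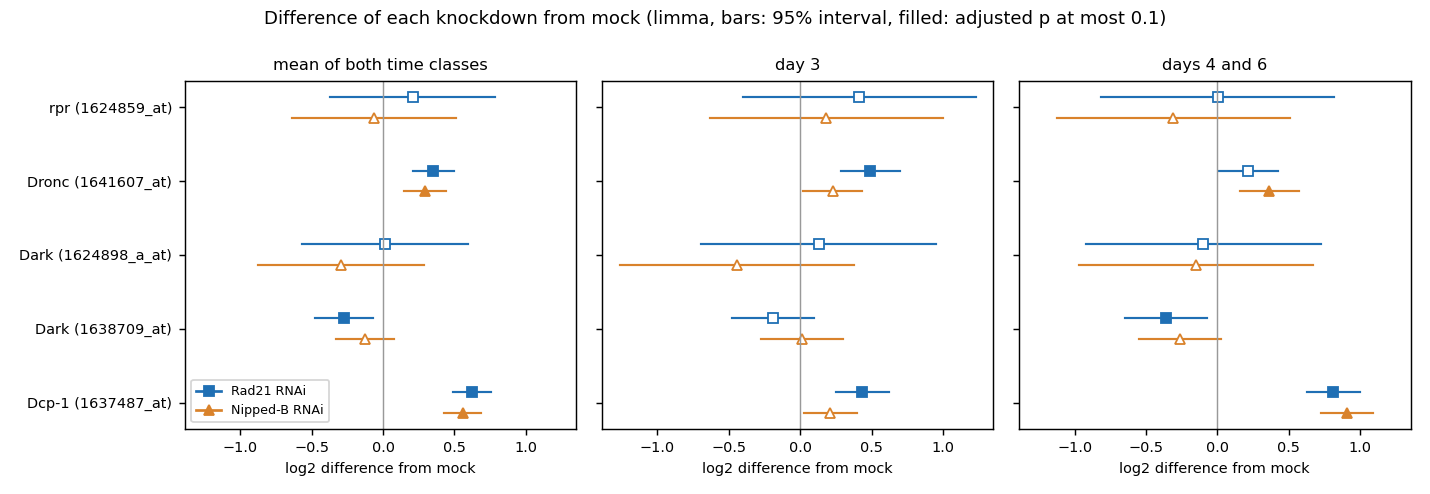
Log2 difference of Rad21 RNAi (squares) and Nipped-B RNAi (triangles) cells from mock for the 5 tested probe sets (rows), as the mean of both time classes, at day 3, and at days 4 and 6. Bars are 95% intervals of the limma fit over 12 arrays and filled symbols have an adjusted p of at most 0.1; Dcp-1 lies to the right of 0 in all 3 panels, up to 0.91 with Nipped-B RNAi at days 4 and 6, and the intervals of rpr and of the second Dark probe set are the widest.

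Counted over the core pathway, 2 of the 5 tested probe sets were called higher and 1 lower with Rad21 RNAi, where 51.5% of all 7350 were called in either direction. With Nipped-B RNAi 2 were called higher and 0 lower, where 44.3% of all were called. These counts are near what the arrays as a whole show. The median difference of the 5 was 0.21 with Rad21 and -0.06 with Nipped-B RNAi, beside 0.04 and 0.05 over all tested probe sets. At day 3 alone, 2 were called with Rad21 RNAi (30.8% of all) and 0 with Nipped-B RNAi (11.9% of all), where 2 had an unadjusted p under 0.05 in limma and 2 were called with the replicate block. At days 4 and 6, 2 were called with Rad21 RNAi (41.5% of all) and 2 with Nipped-B RNAi (39.9% of all). Between the time classes of mock cells 1 of the 5, Dcp-1, was called, where 35.2% of all were. In Rad21 RNAi cells Dcp-1 was again the only 1 of the 5 called between the classes (9.51% of all), and in Nipped-B RNAi cells 0 were called (14.7% of all), with 1, Dronc, at an unadjusted p under 0.05.

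The effect's change between time classes was called for 1 of the 5 with Nipped-B RNAi (0.34% of all) and for 0 with Rad21 RNAi (1.24% of all), where 1 had an unadjusted p under 0.05 in limma. Directly compared, the knockdowns did not differ in any of the 5 (0 called and 0 with an unadjusted p under 0.05 in limma, where 0.0952% of all were called). The 95% interval of Rad21 RNAi against Nipped-B RNAi ran from -0.09 to 0.20 for Dronc, from -0.35 to 0.05 for the brighter Dark probe set and from -0.07 to 0.20 for Dcp-1. It was wider for rpr, from -0.31 to 0.85, and for the second Dark probe set, from -0.27 to 0.89. Both knockdowns were set against the same 4 mock arrays, so a shift in those arrays moves both differences.

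Around this core, 38 genes that feed, restrain or carry out cell death were followed in 6 lists. Of these 32 had a probe set of their own and 26 passed the filter on low values. Where a gene has several, the one of highest mean stands for it. With Rad21 RNAi 9 of the 26 were called higher (27.3% of all 7350 probe sets) and 4 lower (24.1% of all). With Nipped-B RNAi 8 were called higher (24.4% of all) and 2 lower (19.9% of all). The median log2 difference was 0.09 with Rad21 and 0.15 with Nipped-B RNAi, and 0.04 and 0.05 over all tested probe sets. Between the knockdowns 0 of the 26 were called, and 0 had an unadjusted p under 0.05 in limma.

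The nuclease list held the largest change. Drep1, the fly relative of the inhibitor that keeps the apoptotic DNase inactive, was at 7.61 and 8.06 at day 3, 6.82 at day 4 and 6.57 at day 6 in mock cells. It was at 8.96 and 9.10, 8.79 and 8.73 in Rad21 RNAi cells. In Nipped-B RNAi cells it was at 8.73 and 8.95, 8.85 and 8.95. All knockdown arrays were above all mock arrays, and the mock arrays were lower at days 4 and 6 than at day 3, as for Dcp-1. Drep1 rose by 1.63 with Rad21 RNAi (SE 0.11, limma adjusted p = 3.6e-05), or 3.10-fold, and by 1.60 with Nipped-B RNAi (SE 0.11, adjusted p = 8.61e-05), or 3.04-fold. Drep4, the DNase itself, rose by 0.43 with Rad21 RNAi (SE 0.10, adjusted p = 0.00803) and, with Nipped-B RNAi, by 0.34 (SE 0.10, adjusted p = 0.0294). The Nipped-B call of Drep4 was lost without mock replicate 1 or Nipped-B replicate 2 (0.26 each). Drep2 and Drep3, which belong to the same family, were below the filter.

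AIF is a mitochondrial flavoprotein that can leave the mitochondria in cell death without caspases. It was the only 1 of 3 tested genes of its list to be called over both time classes. Of all probe sets 51.5% were called with Rad21 RNAi and 44.3% with Nipped-B RNAi. AIF was between 10.34 and 10.57 on the mock arrays, between 9.34 and 9.65 with Rad21 RNAi and between 9.49 and 9.83 with Nipped-B RNAi. The groups did not overlap. AIF fell by 0.94 with Rad21 RNAi (SE 0.07, limma adjusted p = 5.07e-05), to 0.52 of the mock level, and by 0.81 with Nipped-B RNAi (SE 0.07, adjusted p = 0.000199), to 0.57 of it. The Bcl-2 family genes Buffy and Debcl, the other tested genes of the list, were not called over both classes, and Debcl was called at -0.21 (SE 0.08, adjusted p = 0.0746) with Rad21 RNAi at days 4 and 6.

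**Figure D3:**
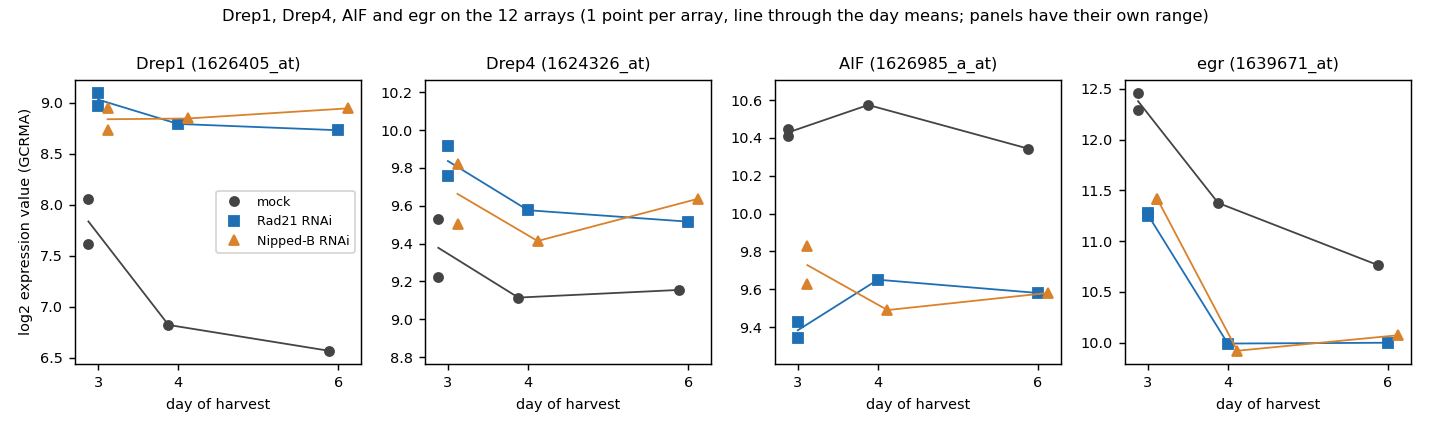
Log2 expression values (vertical axes, GCRMA, each panel with its own range) of Drep1, Drep4, AIF and egr against day of harvest, 1 point per array, with lines through the day means of mock, Rad21 RNAi and Nipped-B RNAi cells. Drep1 lies above mock on every knockdown array and AIF below it, whereas egr falls with time in all 3 treatments, from 12.29 and 12.46 at day 3 to 10.76 at day 6 in mock cells.

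The list of death ligand, JNK and p53 inputs held 8 tested genes. With Rad21 RNAi 3 were called higher and 2 lower (51.5% of all 7350 in either direction). With Nipped-B RNAi 3 were called higher and 1 lower (44.3% of all in either direction). The ligand egr (Eiger, the fly tumour necrosis factor) fell, at 12.29 and 12.46 at day 3, 11.38 at day 4 and 10.76 at day 6 in mock cells, against 11.28 and 11.24, 9.99 and 10.00 with Rad21 RNAi. With Nipped-B RNAi the egr values were 11.41 and 11.42 at day 3, 9.92 at day 4 and 10.07 at day 6. Each knockdown array was below the mock array of its day, while the groups overlapped because egr fell with time in mock cells too. The difference was -1.10 with Rad21 (SE 0.12, limma adjusted p = 0.000186) and -1.02 with Nipped-B RNAi (SE 0.12, adjusted p = 0.000463). A second egr probe set gave -1.20 and -1.14.

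wgn (Wengen), a receptor gene for Eiger, rose by 0.45 with Rad21 RNAi (SE 0.06, limma adjusted p = 0.000483). With Nipped-B RNAi it rose by 0.35 (SE 0.06, adjusted p = 0.00223). The knockdown arrays of wgn (12.65 to 13.08) were all above the mock arrays (12.36 to 12.56). The ligand and this receptor thus moved in opposite directions in both knockdowns. grnd, also on this list, was below the filter, at 2.38 to 2.42 on the 12 arrays. lok, the checkpoint kinase that acts on p53 after DNA damage, rose by 0.37 with Rad21 RNAi (SE 0.12, adjusted p = 0.0286) and, with Nipped-B RNAi, by 0.29 (SE 0.12, adjusted p = 0.0846). hep, the kinase that activates the JNK protein Bsk, rose by 0.28 with Rad21 RNAi (SE 0.08, adjusted p = 0.0241) and, with Nipped-B RNAi, by 0.24 (SE 0.08, adjusted p = 0.0526). The Nipped-B calls of lok and hep were less steady: over the fits that each left out 1 array, lok was called in 3 of 12 (0.14 to 0.43), those without mock replicate 3, Rad21 replicate 3 or Rad21 replicate 4. hep was called in 8 of 12 (0.17 to 0.30) and lost without mock replicate 1 or 3 or Nipped-B replicate 2 or 4. p53, which falls outside the naming rule and is given here because it completes the count, was at -0.25 with Rad21 RNAi (SE 0.11, adjusted p = 0.0893), a call kept in 2 of those 12 fits, without Nipped-B replicate 3 or 4.

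The genes of the engulfment list act in the cells that take up dying neighbours. With Rad21 RNAi 3 of 6 tested genes were called higher and 1 lower (51.5% of all 7350 in either direction). With Nipped-B RNAi 1 was called higher (44.3% of all in either direction). Ced-12, part of the machinery that remodels the actin of the engulfing cell, rose by 0.30 with Rad21 (SE 0.05, limma adjusted p = 0.00134) and, with Nipped-B RNAi, by 0.22 (SE 0.05, adjusted p = 0.00841). Ced-6, an adaptor of the engulfment receptor Draper, rose by 0.38 with Rad21 RNAi (SE 0.09, adjusted p = 0.00931) and was at 0.19 with Nipped-B RNAi (SE 0.09, adjusted p = 0.131, or 0.0385 with the replicate block). NimC4, a receptor for dying cells, was called at 0.49 with Rad21 RNAi (SE 0.20, adjusted p = 0.0726), a call kept in 6 of the 12 fits without 1 array, from 0.30 to 0.68, and lost without mock replicate 2, 3 or 4 or Rad21 replicate 1, 2 or 3. drpr, which encodes Draper, was at -0.12 with Rad21 RNAi (SE 0.04, adjusted p = 0.0355), and lost the call without Rad21 replicate 2 (-0.11) or replicate 4 (-0.09). By time class, 4 of the 6 were called higher with Rad21 RNAi at day 3 (30.8% of all in either direction). At days 4 and 6, 1 was called higher and 1 lower (41.5% of all in either direction). NimC4 was at 1.05 (SE 0.28, limma adjusted p = 0.0262) at day 3 and at -0.07 (SE 0.28, adjusted p = 0.872) at days 4 and 6. drpr was at 0.04 (SE 0.06, adjusted p = 0.629) at day 3 and at -0.29 (SE 0.06, adjusted p = 0.00576) at days 4 and 6. The change of the Rad21 effect between the classes was called for 0 of the 6 by limma (1.24% of all), with 2 at an unadjusted p under 0.05. It was -1.11 (SE 0.39, limma adjusted p = 0.267) for NimC4 and -0.33 (SE 0.08, adjusted p = 0.139) for drpr.

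Haemocytes and glia are the fly's main engulfing cells, and some of their markers were called. Over all 7350 probe sets 51.5% were called with Rad21 RNAi and 44.3% with Nipped-B RNAi. The haemocyte markers srp and Pxn, the 2 of 5 above background, rose in both knockdowns, while Hml, NimC1 and He were below log2 4 on all arrays. The summed log2 value of the 5 ran from 28.3 to 28.8 in mock, from 29.1 to 29.5 in Rad21 RNAi and from 28.7 to 29.5 in Nipped-B RNAi cells. Of the glia markers 1 of 3 tested, wrapper, was called, lower in both (-2.16 with Rad21 and -2.22 with Nipped-B RNAi). It reached log2 4 on mock arrays only, so it passed the filter only through the group where it was high. That filter favours a call of lower for such a probe set. The summed value of the 4 glia markers ran from 24.0 to 25.4 in mock cells. It ran from 22.0 to 22.8 in Rad21 RNAi and from 22.0 to 23.0 in Nipped-B RNAi cells. Most of the gap between these sums comes from wrapper. The defining glia marker repo was not called (-0.24 with Rad21 and -0.12 with Nipped-B RNAi). Nor was moody (-0.03 with each), and gcm was below log2 4 on all arrays. The part of these cell types in the engulfment values was not tested.

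The remaining lists changed little. Of the other IAP family genes and their regulators, 0 of 5 tested were called with Rad21 RNAi (0 with an unadjusted p under 0.05 in limma). Of all probe sets 51.5% were called there. With Nipped-B RNAi 1 was called, where 44.3% of all were. That gene was Bruce, a very large ubiquitin-conjugating enzyme with an IAP repeat, at 0.24 with Nipped-B RNAi (SE 0.08, adjusted p = 0.0359) and 0.13 with Rad21 RNAi (SE 0.08, adjusted p = 0.205, or 0.0917 with the replicate block). Of the other caspases, Dredd, known for its part in the immune response, was called at 0.15 with Rad21 RNAi (SE 0.06, adjusted p = 0.0568) and at 0.17 with Nipped-B RNAi (SE 0.06, adjusted p = 0.0494). These calls were kept in 5 and 9 of the 12 fits without 1 array, the first without mock replicate 3 or any Nipped-B array, the second in all but those without mock replicate 1, mock replicate 2 or Nipped-B replicate 2. The Nipped-B call of Bruce was lost without mock replicate 1 or Nipped-B replicate 2 (0.20 each). Strica was not called in either, and Decay and Damm were below the filter.

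**Figure D4:**
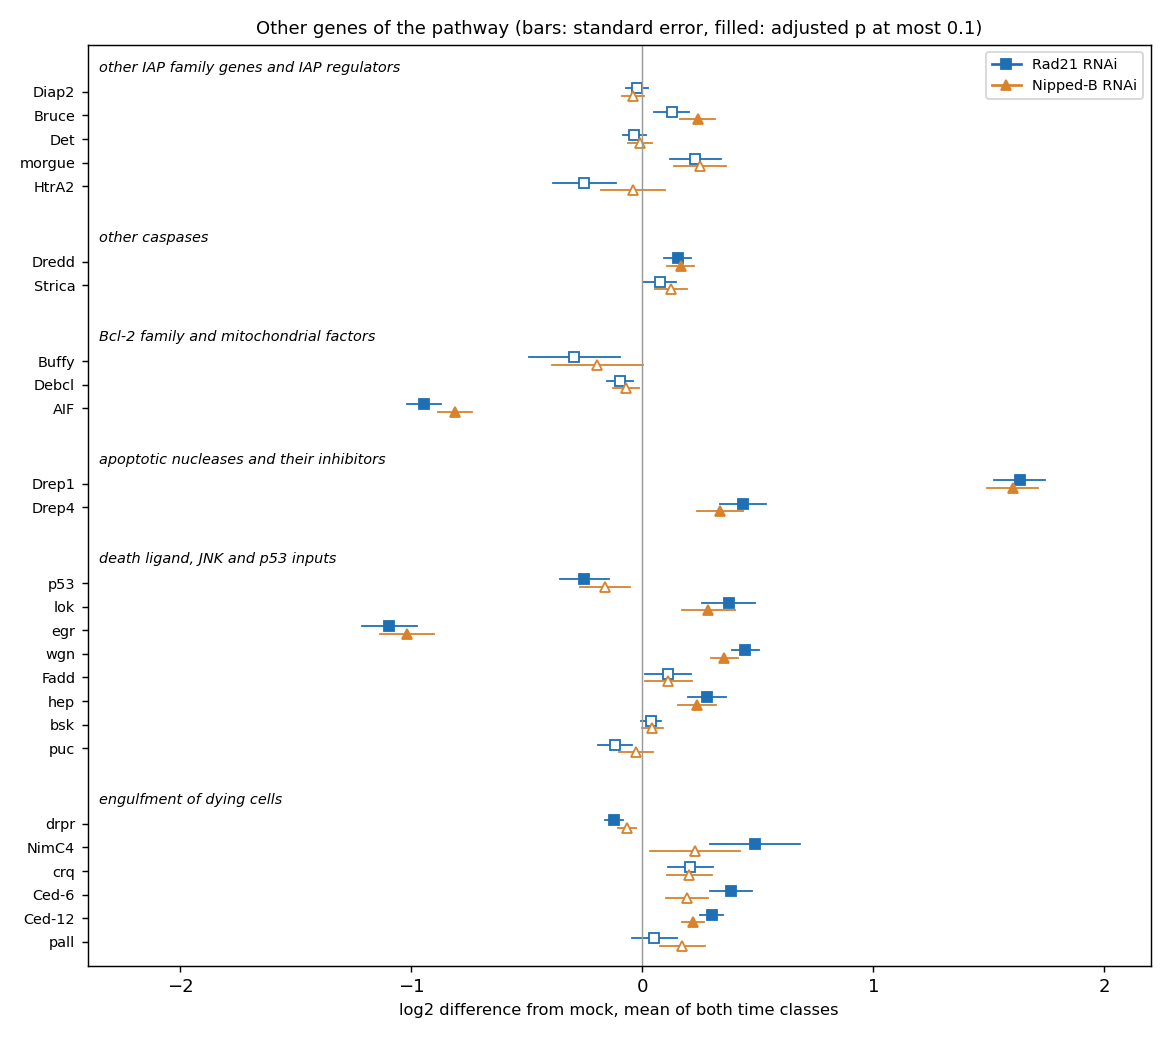
Log2 difference from mock, as the mean of both time classes (horizontal axis), of the 26 other tested pathway genes (rows, grouped by list) with Rad21 RNAi (squares) and Nipped-B RNAi (triangles). Bars are standard errors of the limma fit and filled symbols have an adjusted p of at most 0.1; Drep1 stands at 1.63 and 1.60, AIF and egr lie near -1, and most others lie within 0.5 of 0.

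The profiles of the called core genes over the 12 arrays were set beside those of 6463 other tested probe sets of 1 gene, each centred on its own mean. By root mean square distance in log2 units, the nearest to Dronc were tacc (0.0679), scramb2 (0.0681) and TSG101 (0.0717), where the median distance was 0.273. The nearest to the brighter Dark probe set were Cdc7 (0.087), pn (0.0956) and Naa20A (0.101), beside a median of 0.265. The nearest to Dcp-1 were Pkn (0.0831), tay (0.0936) and Traf4 (0.099), beside a median of 0.378. No core member was among its neighbours because members were left out of the search. The points share arrays, days and treatments, and no test was made.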

How the data were processed

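Total RNA of 12 BG3 samples was labelled by the study's authors and hybridised to Affymetrix arrays. The authors used GCRMA for the deposited log2 values. GCRMA corrects background, quantile-normalizes the arrays and summarises each probe set. Its version was not found in the labels or methods. It shrinks dim probe sets towards a floor, so differences of low genes are understated.

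Of 18952 probe sets, 183 controls were left out. Names came from the array annotation, with symbols updated through a RefSeq table of Release 6, and for 105 further probe sets (among them those of rpr and Decay) from the publication's probe table, which was held in part and used for names only. Of the 18769, 13753 name 1 gene, 401 several and 4615 none. No genome or sequence table was at hand, and sequences are not shown.

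limma 3.58.1 in R 4.3.3 fitted 6 means (3 treatments in 2 time classes, day 3, and days 4 and 6 together) with moderated, trended variances over 7350 probe sets. The study's methods use a balanced 2-way analysis and the same threshold of 0.1. The fit was tested on simulated data. Tables and figures used Python 3.11.15, pandas 2.3.3, numpy 2.4.6 and matplotlib 3.10.9. The precision is limited by the number of arrays. The day 3 replicates differed with an SD of 0.25 in mock, 0.18 in Rad21 RNAi and 0.22 in Nipped-B RNAi cells over the tested probe sets.

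Arrays of 1 replicate number shared their deviations from the treatment means (correlations across probe sets from 0.49 to 0.79). Differences between replicates 1 and 2, both of day 3, correlate between treatments at 0.36 to 0.50, and those between replicates 3 and 4 at 0.51 to 0.66, the latter including the day. The number was therefore read as a pairing, from the data and the shared day. The main fit has no term for it, so its errors and adjusted p ignore the pairing. The replicate block was run as an alternative, and its values are given only where the block is named. Every probe set of the core genes is named. Of the other lists, up to 4 genes called in either knockdown are named by size of change, and for each called core gene the 3 nearest profiles. The members and lists were chosen with earlier results of these data known. The alternatives were no filter or a limit of log2 5, no variance trend, treatment as the only term, a replicate block, arrays centred on their median, values under log2 4 set to 4, a threshold of 0.05, and leaving out each array.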

Additional observations from a re-analysis of the deposited data

Results flagged for a closer look

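The only result singled out was the difference between time classes of the Nipped-B effect on Dcp-1. The log2 difference from mock was 0.21 at day 3 and 0.91 at days 4 and 6, and the change between them, 0.70 (SE 0.11), passed the interaction test (limma adjusted p = 0.0909). The mock values behind it were 10.37 and 10.45 at day 3 and 9.71 and 9.78 at days 4 and 6. The Nipped-B values were 10.66 and 10.58, then 10.57 and 10.74. In the knockdowns the time class also differs in the amount of dsRNA, and each of days 4 and 6 has 1 array of each treatment.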

How the results depend on the processing

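Of 960 values of the tested core probe sets under the alternatives, 929 kept their side of the threshold. Another 12 passed it only under the alternative, 19 lost it, and 0 turned sign while called. Changes of sign in values called in neither fit were not counted. The second Dark probe set with Rad21 RNAi, for example, ran from -0.09 to 0.12 without 1 array. The number of core probe sets called for the change of the Nipped-B effect between time classes, 1, became 0 with centred arrays (where the Dcp-1 value was 0.65, adjusted p = 0.113) and with a threshold of 0.05, and ran from 0 to 2 without 1 array. With the replicate block, 1 was called for the change of the Rad21 effect instead of 0, and 2 for Nipped-B RNAi at day 3 instead of 0 (0 to 1 without 1 array). For Rad21 RNAi at days 4 and 6, 1 was called with no filter and 1 with a threshold of 0.05, instead of 2 (1 to 2 without 1 array). The block also brought in Dronc with Rad21 RNAi at days 4 and 6, Bruce with Rad21 RNAi and Ced-6 with Nipped-B RNAi. It changed no other named call of the core probe sets against mock, or of the other pathway genes over both time classes. Its effect was not examined for changes between time classes within a treatment, for other pathway genes by time class, or for the markers.

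Of the other pathway genes, those called lower with Rad21 RNAi, 4, became 2 with no filter and 1 with treatment as the only term (2 to 5 without 1 array, with 2 without Rad21 replicate 2 or 4). Those called higher with Nipped-B RNAi, 8, became 5 and 3 under the same settings (3 to 9, with 3 without mock replicate 1 or Nipped-B replicate 2). Those called lower with Nipped-B RNAi, 2, became 1 with treatment as the only term (2 to 4, with 4 without Nipped-B replicate 3). Under that setting egr and Dredd lost their calls with both knockdowns, p53, drpr and NimC4 with Rad21 RNAi, and Bruce, lok, hep and Ced-12 with Nipped-B RNAi. The causes were not tested. Without Nipped-B replicate 3, rpr was called with Nipped-B RNAi at days 4 and 6 (-0.99) and for the change of that effect (-1.17). Without Nipped-B replicate 1, the second Dark probe set was called at day 3 (-1.11). In each case 1 array stood for its class and is assumed to vary like the others.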

Other observations

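The genes beside the inducers on chromosome arm 3L were looked up after the values had been seen. In the RefSeq order of protein-coding genes, CG7320, CheA75a, CG5103 and CG13700 lie between hid and grim, and rpr lies between grim and skl. All 4, and CG13699 on the other side of hid, were below log2 4 on all 12 arrays, as were grim and skl. CG32196, the next gene after skl, was at 6.28 to 6.69 on all 12 arrays. rpr, at 4.62 to 5.98, was the only named probe set between hid and skl above log2 4.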
